A study of Drosophila melanogaster with 6 samples.

Results

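The genes described here make, package, recapture or break down the fast transmitters of the fly brain. They are ChAT, VAChT, ChT and Ace of cholinergic signalling, VGlut of glutamatergic neurons, and VGAT and Gad1 of GABAergic neurons. These 7 genes were taken by name from the 17137 gene names of the deposited table, with every transcript listed under them, which gave 16 of its 36294 transcripts. The name ChT is not used in the table, and the gene was found there as CG7708 through the RefSeq accessions of its transcripts. RNA was sequenced from brains of third-instar Canton-S larvae, a wild-type strain with no transgene. Alcohol larvae grew on food made with 5% ethanol and topped up daily with 0.3 mL of 10% alcohol, and control larvae grew on regular food made with water and not topped up. Brains were dissected on day 6 from egg-laying, as larvae left the food, and each group had 3 pools of roughly 30 brains. No source says whether pools came from separate cultures, so p-values measure only the spread between these pools, which may be technical.

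In insects acetylcholine is the main fast excitatory transmitter of the central nervous system, glutamate is the transmitter of motor neurons and of some central neurons, and GABA is the main inhibitory transmitter. A neuron is assigned to one of these classes by the enzyme that makes its transmitter and by the transporter that loads it into synaptic vesicles. Choline acetyltransferase (ChAT) makes acetylcholine from choline and acetyl-CoA, the vesicular transporter VAChT loads it, acetylcholinesterase (Ace) splits it in the synaptic cleft, and the choline transporter ChT is named for the uptake of choline. VGlut loads glutamate, glutamate decarboxylase (Gad1) makes GABA from glutamate, and VGAT loads GABA.

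ChAT and VAChT form a single nested locus on chromosome 3R of the dm6 assembly. ChAT-RA runs from 18705501 to 18732344 on the plus strand, and VAChT-RA, from 18705501 to 18718916, starts at the same base. The first exon of both, from 18705501 to 18706106, is the same 606 bases, so reads in it can be assigned to either gene. The remaining bases of the 7098-base VAChT transcript and the 4011-base ChAT-RA transcript are not shared. ChT lies on the same chromosome from 18680604 to 18686739, and Ace from 13222951 to 13259517 on the minus strand. VGlut lies on chromosome 2L (2391660 to 2410662 over its listed transcripts), VGAT on 2R (14198478 to 14201249) and Gad1 on 3L (4074077 to 4088744). One of the 3 VGlut transcripts, NM_001273010, starts at 2391660, upstream of the VGlut transcripts in the annotation used here, which does not hold it.

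Values are FPKM (fragments per kilobase of transcript, scaled to the mapped fragments of a pool), so levels of different genes can be compared per length. The aligned bases behind them were 2719 to 4028 megabases in the alcohol pools and 3257 to 4244 megabases in the control pools. The main transcript of each cholinergic gene and of VGAT had a mean read depth of 29.4 to 142 per base. A gene's level is the sum over its transcripts. Genes and transcripts whose variance of FPKM across the 6 pools was above 1 entered limma's moderated test on the log2(FPKM + 1) scale, 8247 genes and 14645 transcripts in all, with Ballgown's library-size covariate in the model. A call needed an unadjusted p under 0.05 and a log2 fold change beyond 1 in either direction, the thresholds of the study. The covariate differed between the groups (treatment explained 40.3% of its variance), so the fold change without it is also given for each gene.

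No difference between alcohol and control pools was detected for any of the 7 genes. All 7 passed the variance filter, 0 of 7 were called, and 0 had an unadjusted p under 0.05, where 1.22% of all tested genes were called and 2.44% had an unadjusted p under 0.05. Of the 16 transcripts 12 passed the filter and 0 were called, where 3.85% of all tested transcripts were called, and 0 had an unadjusted p under 0.05, where 4.76% of all tested transcripts did. Among all tested features 0 genes and 0 transcripts reached an adjusted p under 0.05 in limma, and 201 genes and 697 transcripts had an unadjusted p under 0.05. The log2 fold changes of the 7 genes lay between -0.30 and 0.20 with a median of 0.10 and 4 of 7 above 0, beside a median of -0.00046 and 49.9% above 0 over all tested genes. Without the covariate they lay between -0.099 and 0.59 with a median of 0.27 and 6 of 7 above 0, beside -0.040 and 40.6% over all tested genes. The alcohol and control values overlapped for all 7 genes, where 6.21% of tested genes had groups that did not overlap.

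**Figure D1:**
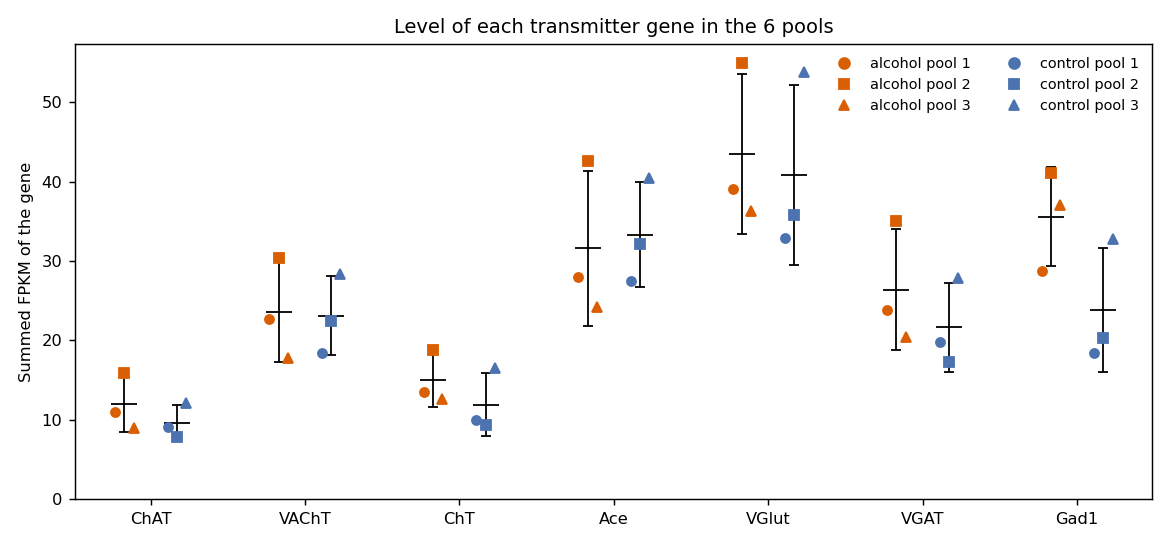
Summed FPKM of the 7 genes (vertical axis) in the 3 alcohol pools (orange, left) and the 3 control pools (blue, right); bars are the mean and SD (n = 3 pools per group). The groups overlap for every gene, and alcohol pool 2 and control pool 3 hold the highest value of their group.

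In the cholinergic set, ChAT had 11.0, 15.9 and 8.96 FPKM in alcohol pools 1 to 3, against 9.02, 7.75 and 12.1 FPKM in control pools 1 to 3. The highest value was in alcohol pool 2 and the lowest in control pool 2, and the others lay between them with the groups mixed. The group means were 12.0 ± 3.58 FPKM in alcohol pools and 9.62 ± 2.24 FPKM in control pools (SD, n = 3 each). On the log2 scale the fold change was 0.19 (standard error 0.349, 95% interval -0.71 to 1.09, limma adjusted p = 0.997), and 0.27 without the covariate. The interval spans 0.611 to 2.13 times the control level.

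VAChT, read from the same start site as ChAT, had 22.7, 30.3 and 17.8 FPKM in the alcohol pools, against 18.4, 22.5 and 28.4 FPKM in the control pools. Both the highest and the lowest of the 6 values were alcohol pools. The means were 23.6 ± 6.31 FPKM in alcohol pools and 23.1 ± 5.01 FPKM in control pools (SD, n = 3 each). The log2 fold change was -0.18 (standard error 0.317, 95% interval -0.99 to 0.64, limma adjusted p = 0.997), and 0.017 without the covariate.

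The transporter ChT had 13.5, 18.8 and 12.6 FPKM in the alcohol pools, against 9.88, 9.28 and 16.5 FPKM in the control pools. The lowest 2 values were control pools, but control pool 3 was above alcohol pools 1 and 3. Its log2 fold change was 0.10 (standard error 0.329, 95% interval -0.75 to 0.95, limma adjusted p = 0.997), and 0.33 without the covariate. Nearly all of it was the longer transcript ChT-RB, since ChT-RA was at 0.0157 to 0.0308 FPKM. A gene of identical structure to ChT-RA, CG46318, is listed beside it, and reads of these models cannot be told apart. CG46318 also shares 3299 bases with ChT-RB, which has 4748, so the same limit holds for most of the transcript behind the ChT level.

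Acetylcholinesterase, encoded by Ace, had 28.0, 42.6 and 24.1 FPKM in the alcohol pools, against 27.4, 32.1 and 40.4 FPKM in the control pools. As for VAChT, alcohol pools held both the highest and the lowest value. The means were 31.6 ± 9.73 FPKM in alcohol pools and 33.3 ± 6.57 FPKM in control pools (SD, n = 3 each). For Ace the log2 fold change was -0.30 (standard error 0.329, 95% interval -1.15 to 0.55, limma adjusted p = 0.997), and -0.099 without the covariate.

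VGlut, the glutamate transporter, had the highest mean of the 7 genes, with 39.1, 55.0 and 36.3 FPKM in the alcohol pools, against 32.9, 35.7 and 53.8 FPKM in the control pools. Alcohol pool 2 and control pool 3 stood close together above the other 4 pools. The means were 43.4 ± 10.1 FPKM in alcohol pools and 40.8 ± 11.3 FPKM in control pools (SD, n = 3 each). The log2 fold change was -0.16 (standard error 0.301, 95% interval -0.93 to 0.62, limma adjusted p = 0.997), and 0.099 without the covariate.

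Of the GABAergic pair, VGAT had 23.8, 35.0 and 20.4 FPKM in the alcohol pools, against 19.8, 17.2 and 27.9 FPKM in the control pools. The groups were mixed, with control pool 3 above alcohol pools 1 and 3. VGAT thus had a log2 fold change of 0.14 (standard error 0.361, 95% interval -0.79 to 1.07, limma adjusted p = 0.997), and 0.27 without the covariate.

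Gad1, the enzyme that makes GABA, had 28.7, 41.0 and 37.0 FPKM in the alcohol pools, against 18.3, 20.3 and 32.8 FPKM in the control pools. Only control pool 3 reached into the alcohol values, where it lay above alcohol pool 1. The means were 35.6 ± 6.27 FPKM in alcohol pools and 23.8 ± 7.86 FPKM in control pools (SD, n = 3 each), a ratio of means of 1.49, the largest of the 7 genes. In the model Gad1 had a log2 fold change of 0.20 (standard error 0.238, 95% interval -0.41 to 0.82, limma adjusted p = 0.997). Without the covariate it was 0.59, with an unadjusted limma p of 0.0639, which is short of both thresholds. The exact two-sided permutation test over the pools gave p = 0.2 for Gad1, where 0.1 is the smallest value that 3 against 3 pools allow. For the other 6 genes its p was 0.3 to 0.9.

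**Figure D2:**
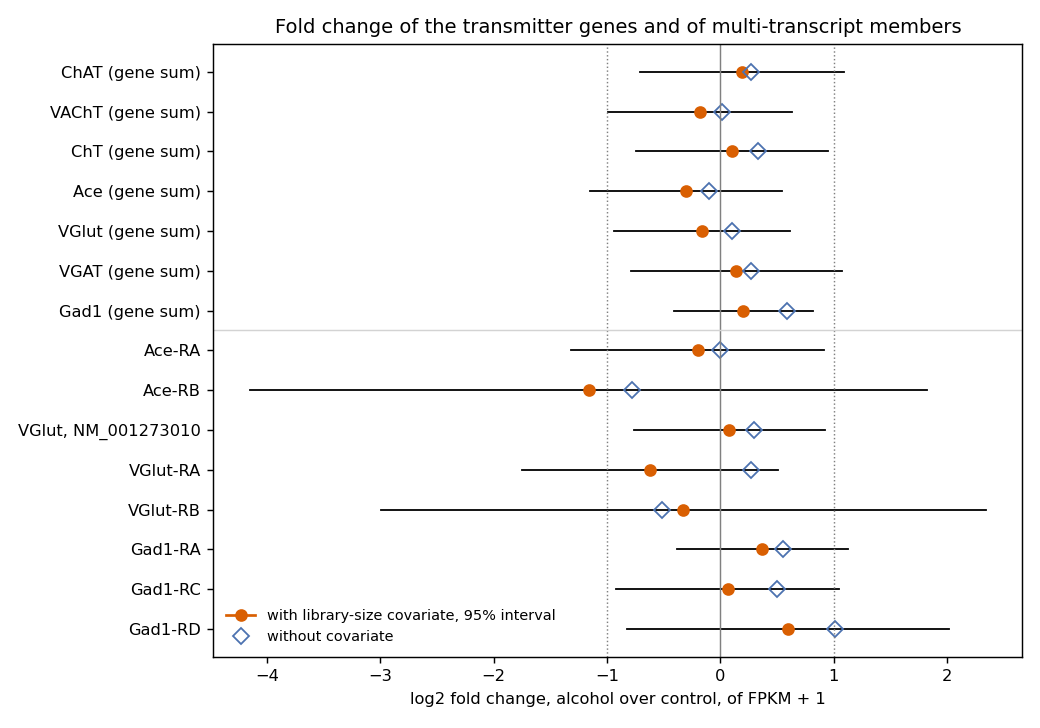
Log2 fold change of FPKM + 1, alcohol over control (horizontal axis), of the 7 gene sums and of the tested transcripts of Ace, VGlut and Gad1, with (orange, 95% interval as a line) and without (blue diamond) the library-size covariate; dotted lines mark the 2-fold threshold. All intervals include 0, and those of Ace-RB and VGlut-RB are the widest.

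Over all 6 pools the mean levels ran, per length, from VGlut (42.1 FPKM) through Ace (32.4), Gad1 (29.7), VGAT (24.0), VAChT (23.3) and ChT (13.4) to ChAT (10.8 FPKM). VGlut was above Ace, VAChT above ChT, and ChT above ChAT in 6 of 6 pools. The neighbours in the middle did not keep their order, since Ace was above Gad1 in 4 of 6 pools, Gad1 above VGAT in 5 of 6 and VGAT above VAChT in 4 of 6. The mean difference between VGAT and VAChT was 0.027 on the log2 scale with an SD of 0.219 over pools, so these levels did not differ beyond their spread. VGlut exceeded 75.4% of the tested genes in mean level, and ChAT 26.2%.

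The pools differed in the same way for most of the 7 genes. In alcohol pool 2 all 7 genes were above their own mean over the 6 pools, by 0.41 to 0.60 on the log2 scale, and in control pool 3 all 7 were above it, by 0.21 to 0.38. In control pool 1 all 7 were below their mean, in control pool 2 all but Ace, and in alcohol pool 3 all but Gad1, which was 0.38 above. The SD of the log2 level over the 6 pools was 0.31 to 0.47 for the 7 genes, beside a median of 0.17 over the 6239 tested genes with a mean of at least 10 FPKM. With alcohol pool 2 and control pool 3 both left out, a choice made after seeing the data, 0 of 7 genes and 0 of 12 transcripts were called.

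A set of 8 general neuron markers (elav, fne, nSyb, Syt1, brp, Syn, para and Rbp9) followed the same pools. Their summed level was 402, 572 and 340 FPKM in alcohol pools 1 to 3, against 334, 358 and 545 FPKM in control pools 1 to 3, highest in alcohol pool 2 and control pool 3. All 8 were detected in every pool, 7 were tested and 0 were called. In bulk RNA, fewer cells of a type and less RNA per cell cannot be told apart. Salivary gland glue genes, a sign of other larval tissue, summed to 29559 to 44878 FPKM in the alcohol pools and 14104 to 55869 FPKM in the control pools. In the fit with the covariate 3 of 6 were called higher in alcohol pools, where 1.22% of all tested genes were called. Their log2 fold changes were 1.40 (Sgs3), 1.21 (Sgs5) and 1.03 (Sgs8), but 0.43, 0.31 and 0.18 without the covariate. Without it all 6 were above 0 with a median of 0.25, and the groups overlapped for all 6. Larval serum and fat body genes summed to 669 to 3947 FPKM in the alcohol pools and 2123 to 6448 FPKM in the control pools. The lowest sum was in alcohol pool 2, and 0 of 6 genes were called. Their median log2 fold change was -0.75 with 1 of 6 above 0. Without the covariate it was -1.37 with 0 of 6 above 0. Only Fbp1 had groups that did not overlap, at 69.2 to 400 FPKM in alcohol pools and 513 to 1106 FPKM in control pools. Its log2 fold change was -2.23, and -2.39 without the covariate. Muscle genes summed to 86.9 to 335 FPKM in the alcohol pools and 53.3 to 439 FPKM in the control pools. With the covariate 2 of 6 were called higher in alcohol pools, with log2 fold changes of 2.48 (Mhc) and 2.35 (Act57B). Without the covariate these were 1.15 and 0.97, and the groups overlapped for all 6 muscle genes. Glia markers summed to 256, 303 and 268 FPKM in the alcohol pools, against 226, 205 and 325 FPKM in the control pools. They too were highest in alcohol pool 2 and control pool 3, so that pattern was not particular to neurons. The FPKM of all transcripts summed to 507139 in alcohol pool 2 and 502497 in control pool 3, beside 557377 to 598978 in the other pools. Markers of neuroblasts and progenitors summed to 165 to 248 FPKM in the alcohol pools and 180 to 276 FPKM in the control pools. Their largest part was pros, at 80.0 to 145 FPKM in the alcohol pools and 83.5 to 178 FPKM in the control pools. In both lists 0 genes were called. None of these markers was at 0 in all pools, and the part of such cells in the levels of the transmitter genes was not tested.

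**Figure D3:**
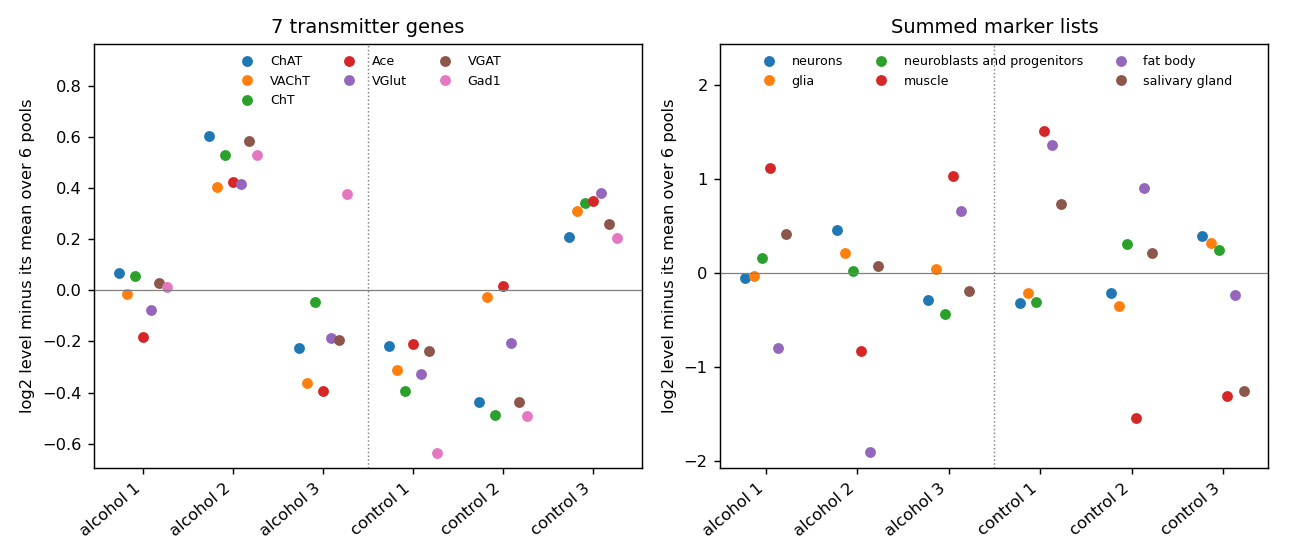
Log2 level minus its mean over the 6 pools (vertical axis) for the 7 transmitter genes (left) and for the summed FPKM of 6 marker lists (right), in 3 alcohol and 3 control pools. The neuron markers, the glia markers and all of the 7 genes but Gad1 are highest in alcohol pool 2 and control pool 3, while the muscle, fat body and salivary gland lists vary over a wider range.

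Each gene was therefore also expressed as a percentage of the summed neuron markers of its own pool, a measure added after seeing the data that does not depend on the scaling of a pool. The sum includes Syt1 and nSyb, which the study lists among its alcohol-upregulated genes from single transcripts. Here the ratio of means, alcohol over control, was 1.21 for Syt1 and 1.14 for nSyb. Over all of the markers it ran from 0.947 (fne) to 1.21. On this measure the SD of the log2 value over the 6 pools was 0.054 for VGlut, against 0.318 for its level, and 0.10 to 0.18 for the other genes apart from Gad1. VGlut was at 9.73, 9.60 and 10.7% of the neuron markers in the alcohol pools, against 9.85, 9.97 and 9.85% in the control pools. These values overlapped and differed by 0.015 on the log2 scale (exact two-sided permutation p = 1.0).

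Gad1 was at 7.15, 7.17 and 10.9% of the neuron markers in the alcohol pools, against 5.49, 5.65 and 6.01% in the control pools. All 3 alcohol pools were above all 3 control pools, with alcohol pool 3 far above the rest. The difference was 0.53 on the log2 scale (exact two-sided permutation p = 0.1, the smallest possible). ChT was at 3.37, 3.28 and 3.71% in the alcohol pools, against 2.96, 2.59 and 3.02% in the control pools, again without overlap, with a difference of 0.27 (exact two-sided permutation p = 0.1). Groups that did not overlap were thus seen for 2 of the 7 genes on this scale, where 2.23% of tested genes had such groups and 1.36% had them with alcohol higher. That share is over all tested genes, not over genes that follow the neuron markers as most of the 7 do. It is therefore not a like background, and an excess among the 7 was not tested. The other 5 overlapped, among them VAChT, at 5.39 ± 0.217% in alcohol pools and 5.67 ± 0.548% in control pools (SD, n = 3 each), and ChAT, at 2.72 ± 0.074% in alcohol pools and 2.36 ± 0.296% in control pools (SD, n = 3 each).

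**Figure D4:**
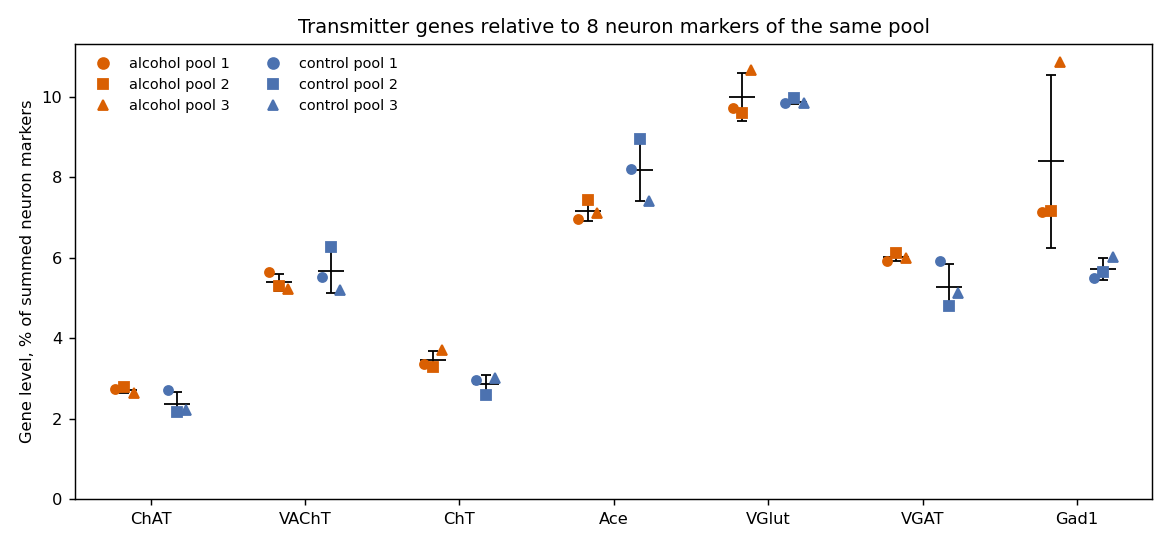
Summed FPKM of each gene as a percentage of the summed FPKM of 8 neuron markers of the same pool (vertical axis), in the 3 alcohol pools (orange, left) and 3 control pools (blue, right); bars are the mean and SD (n = 3 pools per group). Gad1 and ChT have no overlap between the groups, and VGlut is close to 10% in most pools.

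Ratios between the summed levels of 2 genes in a pool do not depend on how the pool was scaled, and 7 were computed, within and between the transmitter classes. Gad1 relative to VGlut was 0.734, 0.747 and 1.02 in the alcohol pools, against 0.557, 0.567 and 0.610 in the control pools. All alcohol pools lay above all control pools, with a log2 difference of 0.51 (exact two-sided permutation p = 0.1, adjusted p = 0.35 over the 7 ratios computed). Without alcohol pool 3, the highest, the difference was 0.36. From the highest transcript of each gene alone (Gad1-RC and VGlut-RB) it was 1.12 and the groups overlapped (exact two-sided permutation p = 0.4). That value includes alcohol pool 3, where VGlut-RB was at 3.88 FPKM, against 17.4 to 28.2 FPKM in the other pools. Of the tested genes other than VGlut, 2.51% had groups that did not overlap relative to VGlut, and 1.29% with alcohol higher.

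Ace relative to ChAT was 2.54, 2.68 and 2.70 in the alcohol pools, against 3.04, 4.15 and 3.34 in the control pools, lower in every alcohol pool by 0.40 on the log2 scale (exact two-sided permutation p = 0.1, adjusted p = 0.35). From the highest transcripts alone (Ace-RA and ChAT-RA) the difference was -0.30 and the groups overlapped (exact two-sided permutation p = 0.2). Groups that did not overlap were frequent on this scale, at 9.58% of tested genes, and at 9.13% with alcohol lower. VAChT relative to ChAT, the ratio within their shared locus, was 2.06, 1.90 and 1.99 in the alcohol pools, against 2.05, 2.90 and 2.35 in the control pools, and the groups overlapped (log2 difference -0.28, exact two-sided permutation p = 0.2, adjusted p = 0.35). ChT relative to ChAT ranged only from 1.10 to 1.41 over all pools (log2 difference 0.064, exact two-sided permutation p = 0.6). The remaining ratios, Gad1 to VGAT (0.33), VGlut to ChAT (-0.20) and Gad1 to ChAT (0.32, as log2 differences), had groups that overlapped and exact permutation p-values of 0.2 to 0.6.

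Several of the genes are listed as more than 1 transcript. ChAT-RB, which ends earlier than ChAT-RA and has no base of its own, is listed at 0 in all 6 pools. The alternatives of VGlut, Gad1 and, for RA and RB, of Ace that the annotation holds differ outside the coding sequence and share the same coding exons. Transcript usage was tested for the 3 members with at least 2 tested transcripts, and no change in usage was detected, with limma diffSplice p-values of 0.478 for Ace, 0.801 for VGlut and 0.723 for Gad1 (adjusted 0.955 or above), where 0.606% of the tested genes passed an adjusted p under 0.05 and 9.83% an unadjusted p under 0.05.

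In VGlut, VGlut-RB, whose first exon of 215 bases starts at 2400751, held 62.0, 50.1 and 10.7% of the gene's FPKM in the alcohol pools, against 52.8, 50.7 and 52.4% in the control pools. Alcohol pool 3 stood apart from the other 5 pools, while the gene's sum in that pool was 36.3 FPKM, inside the range of the others. In the same pool NM_001273010 held 50.5% and VGlut-RA, whose own first exon has 56 bases, held 38.8%, each the highest share of the 6 pools. In terms of level, VGlut-RB had 24.2, 27.5 and 3.88 FPKM in the alcohol pools, against 17.4, 18.1 and 28.2 FPKM in the control pools, which gave a log2 fold change of -0.33 (standard error 1.02), and -0.51 without the covariate. The mean read depth of VGlut-RB was 13.8 in alcohol pool 3 and 56.6 to 111 in the other pools.

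In Ace, Ace-RA held 99.2, 77.3 and 76.9% in the alcohol pools, against 75.7, 70.8 and 89.2% in the control pools. Ace-RB has 11 exons against 10, and its differences from Ace-RA include a first exon of 65 bases of its own and an earlier 3′ end. Ace-RB had 0.233, 9.38 and 5.46 FPKM in the alcohol pools, against 6.66, 9.34 and 4.26 FPKM in the control pools. Alcohol pool 1 alone was near 0, and the other values of both groups overlapped. The log2 fold change was -1.16 (standard error 1.14, 95% interval -4.15 to 1.82, limma adjusted p = 0.999), larger than the 2-fold threshold and not called. The last transcript, Ace-RC, was at 0 to 0.282 FPKM.

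**Figure D5:**
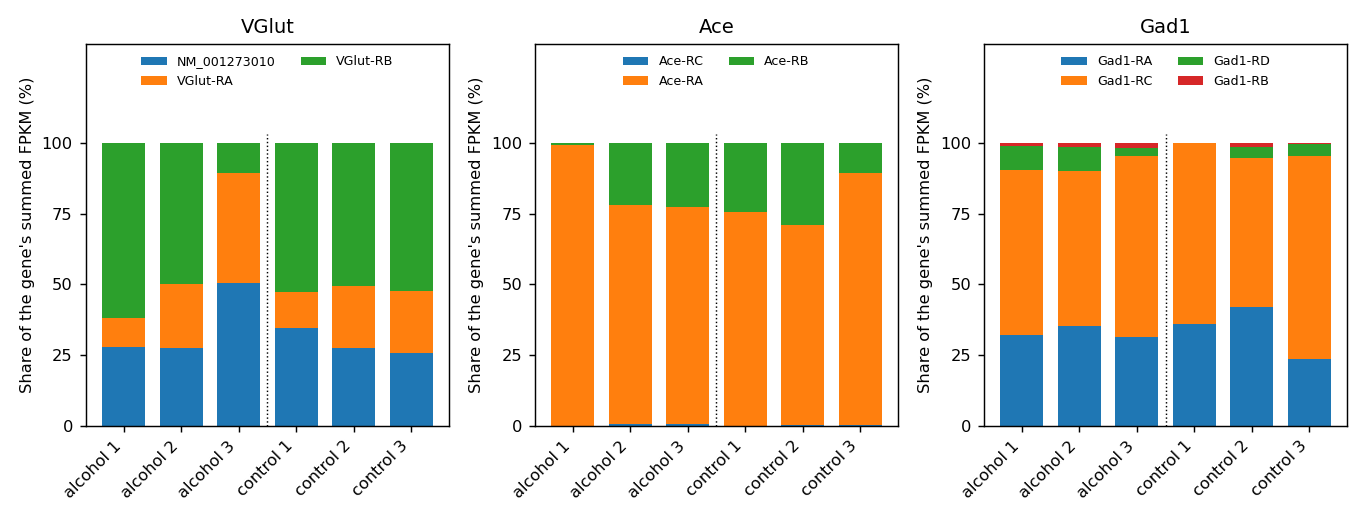
Share of the gene's summed FPKM held by each listed transcript (vertical axis, percent) of VGlut, Ace and Gad1 in 3 alcohol pools (left of the dotted line) and 3 control pools. The share of VGlut-RB is lowest in alcohol pool 3 and that of Ace-RB is lowest in alcohol pool 1.

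In Gad1, Gad1-RC with 9 exons was the highest transcript, with 16.8, 22.4 and 23.7 FPKM in the alcohol pools, against 11.7, 10.7 and 23.6 FPKM in the control pools. Gad1-RA lacks 101 bases of Gad1-RC and has no base of its own, so its level depends on how reads of shared bases were divided. It had 9.20, 14.5 and 11.6 FPKM in the alcohol pools, against 6.62, 8.52 and 7.70 FPKM in the control pools. It was the only 1 of the 12 tested transcripts whose groups did not overlap, where 7.72% of all tested transcripts had such groups and 2.82% had them with alcohol higher (exact two-sided permutation p = 0.1, the smallest possible). Its log2 fold change was 0.37 (standard error 0.288, limma adjusted p = 0.999) and 0.55 without the covariate, and its share of the gene, 32.9 ± 2.16% in alcohol pools and 33.9 ± 9.47% in control pools (SD, n = 3 each), was within the spread. Gad1-RD starts upstream at 4088399 and also has no base of its own. It had 2.47, 3.58 and 1.09 FPKM in the alcohol pools, against 0, 0.723 and 1.36 FPKM in the control pools. These values overlapped between alcohol pool 3 and control pool 3, and the mean read depth behind them was 0 to 14.4. Its log2 fold change was 0.60 (standard error 0.543), and 1.01 without the covariate.

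The other genes of transmitter supply and clearance showed no call either. Of 15 such genes, all tested, 0 were called and 0 had an unadjusted p under 0.05, with 7 of 15 fold changes above 0 and a median log2 fold change of -0.027, beside -0.00046 over all tested genes. Without the covariate 13 of 15 were above 0 with a median of 0.12, beside -0.040 and 40.6% above 0 over all tested genes. Gat, the plasma membrane GABA transporter, had 12.6, 16.4 and 19.9 FPKM in the alcohol pools, against 11.1, 9.47 and 21.1 FPKM in the control pools (log2 fold change -0.14, and 0.27 without the covariate). Gabat, which breaks down GABA, had 111, 139 and 110 FPKM in the alcohol pools, against 84.8, 95.3 and 152 FPKM in the control pools, with control pool 3 highest (log2 fold change -0.17, and 0.15 without the covariate). Eaat1, the glutamate transporter of glia, had a log2 fold change of -0.027, and 0.17 without the covariate. For Vmat, which loads monoamines into vesicles, the values were -0.27 with and 0.16 without the covariate. ATPCL, which makes cytosolic acetyl-CoA, was the only gene of the 15 without overlap between the groups, at 45.1 to 54.2 FPKM in the alcohol pools and 55.0 to 58.5 FPKM in the control pools, where 6.21% of tested genes had such groups, and the test made no call for it (log2 fold change -0.17, and -0.19 without the covariate).

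Among the 6592 other genes with a mean of at least 10 FPKM, the profile over the 6 pools most like that of ChAT was VGAT, and the most like VGAT was ChAT, with a root-mean-square difference of centred log2(FPKM + 1) of 0.034. The next for them were Spred (0.049) and Teh2 (0.038). The closest were CG42404 (0.020) and side-VIII (0.033) for VAChT, CG40498 (0.015) and sbm (0.030) for ChT, CG42324 (0.026) and prd1 (0.031) for Ace, and dpr11 (0.027) and fipi (0.031) for VGlut. Gad1 had no neighbour as close, with FMRFa (0.085) and Csas (0.11) the nearest. The likeness rests on 6 pools that share their libraries, and it is only a description.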

How the data were processed

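Poly-A RNA of 6 pools (3 alcohol, 3 control) was sequenced from stranded libraries. The authors checked reads with FastQC 0.11.9, trimmed them with Trimmomatic 0.39, aligned them to dm6 with HISAT2 2.2.0 and quantified transcripts in each pool with StringTie 2.1.4. They deposited FPKM for each transcript, with no further normalization. They also deposited read coverage (mean depth per base), a signal used here for depth only. Whether strand was used in quantification is not given in the sources used here. A table of the authors' own fold changes, p-values and q-values was not used. The files hold no read counts, so the spread of the pools sets the precision of a value.

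Groups and replicate numbers came from the sample titles. FPKM was summed by gene name. Genes and transcripts with a variance of FPKM above 1 were tested on log2(FPKM + 1) with limma 3.58.1 in R 4.3.3, and values were summarised in Python 3.11.15. The model held treatment and the sum of log2(FPKM + 1) below the 75th percentile of a pool. Tests were two-sided with Benjamini-Hochberg adjustment over all features. Single ratios were tested exactly over the 20 assignments of the pools. The fits were run on simulated data with less spread than these pools and with planted changes larger than those of the members in the main fit. That run does not show whether changes as small as those of the members would be detected. Transcripts were matched to the Ensembl annotation of the same assembly by position, exon number and length, which matched 35457 of 36294. The text names the 7 members and their transcripts, listed genes past a threshold with a few others, and the 2 genes nearest in profile to each member. The members and lists were chosen with earlier results of these data known. Alternatives covered the covariate, a replicate block, pseudocount, filter, scaling, the ordinary F-test, left-out pools and, for ratios, the highest transcript of each gene alone.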

Additional observations from a re-analysis of the deposited data

How the results depend on the processing

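Under every alternative run, 0 of the 7 genes and 0 of their tested transcripts were called. Signs of uncalled changes moved as follows. Without the covariate, with or without the replicate block, the log2 fold change was 0.017 for VAChT, 0.099 for VGlut and 0.27 for VGlut-RA. After quantile normalization it was 0.063 for VAChT (0.045 for VAChT-RA), 0.13 for VGlut, 0.33 for VGlut-RA and 0.016 for Ace-RA. After rescaling to TPM it was 0.42 for VAChT, 0.32 for Ace, 0.46 for VGlut, 0.13 for VGlut-RA, 0.79 for VGlut-RB and 0.47 for Ace-RA, and the values already above 0 became 0.76 for ChAT (unadjusted p = 0.0454, adjusted p = 0.921 in limma), 0.72 for ChT, 0.74 for VGAT and 0.75 for Gad1, so that 7 of 7 were above 0, beside a median of 0.075 over all genes. With the replicate block and the covariate it was -0.061 for ChT (-0.059 for ChT-RB), 0.72 for VGlut-RA, -0.60 for Gad1-RD and 2.37 for Ace-RB (unadjusted p = 0.0519). Relative to the neuron markers VGlut was at 0.015. The cause of these shifts was not tested. An unadjusted limma p under 0.05, with a fold change short of the threshold, was also reached by Gad1-RA without the covariate (0.55) and after quantile normalization (0.59), and by Gad1-RD without alcohol pool 3 (0.80), with limma adjusted p-values of 0.997, 0.994 and 0.706 in that order. The values of Gad1 and Gad1-RA stayed above 0 in each alternative, but Gad1 came to 0.011 without control pool 2.

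Leaving out 1 pool at a time gave log2 fold changes of -0.0067 to 0.66 for ChAT, -0.35 to 0.095 for VAChT, -0.14 to 0.65 for ChT (ChT-RB -0.14 to 0.65), -0.50 to -0.066 for Ace, -0.39 to 0.38 for Ace-RA, -2.67 to 0.43 for Ace-RB (-3.13 without alcohol pool 2 and control pool 3), -0.31 to 0.24 for VGlut, -0.11 to 0.35 for NM_001273010, -0.84 to -0.061 for VGlut-RA, -0.95 to 0.73 for VGlut-RB, -0.082 to 0.65 for VGAT, 0.011 to 0.54 for Gad1, -0.29 to 0.67 for Gad1-RC, and log2 differences of -0.010 to 0.15 for ChT to ChAT, 0.13 to 0.45 for Gad1 to VGAT, 0.093 to 0.43 for Gad1 to ChAT (both lowest without alcohol pool 3), -0.40 to -0.14 for VAChT to ChAT, -0.30 to -0.13 for VGlut to ChAT, -0.50 to -0.27 for Ace to ChAT and 0.36 to 0.59 for Gad1 to VGlut. From the highest transcripts alone VGlut to ChAT was -0.89, a value that includes the low VGlut-RB of alcohol pool 3 (3.88 FPKM, against 17.4 to 28.2 FPKM in the other pools).

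Among all features, 564 transcripts and 101 genes were called, and 22 genes passed for transcript usage. The transcripts called were 348 without the covariate, 323 when a replicate block took its place, 352 after quantile normalization, 285 with the ordinary F-test, and 534 to 851 with 1 pool left out, the highest without control pool 3. The genes called were 384 with the replicate block and the covariate, 274 after rescaling to TPM, 61 with the ordinary F-test, 85 to 165 with 1 pool left out (165 without alcohol pool 3), and 171 without both alcohol pool 2 and control pool 3. Called genes were 97 higher and 4 lower in alcohol pools, but 73 higher and 201 lower when rescaled to TPM, 62 higher and 42 lower when quantile-normalized, and 45 higher and 35 lower without the covariate. Without control pool 3 the median log2 fold change of all genes was 0.11. For transcript usage the number was 1 with the replicate block and the covariate, 6 with the block alone, 40 without the variance filter, 14 after rescaling to TPM, 3 to 29 with 1 pool left out (3 without control pool 3, 6 without control pool 2), and 0 without both pools. Same-numbered pools did not deviate together (mean correlation across transcripts -0.14, against 0.072 for other pairs), so the numbers were not taken as pairs. With 3 pools per group, the standard errors of the 7 log2 fold changes were 0.238 (Gad1) to 0.361 (VGAT).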
